A study of Rattus norvegicus with 6 samples.

Results

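The genes described here are 8 rows of a table of RNA-seq read counts from rat mammary tumors: Hras and Nras, which encode RAS GTPases, Braf, which encodes the kinase they recruit, Nf1, which encodes a brake on RAS, and Dusp6, Spry2, Spry4 and Etv4, which are transcribed in response to ERK activity. They were taken by gene symbol from 26195 named rows, by a rule that uses no measured value. The rule's list of genes was, however, chosen with earlier results of these data known. All 8 had enough counts to be tested. The table holds 6 mammary tumors of F344 rats, an inbred strain, with 1 library per tumor. Tumors 102, 107 and 116 came from older rats, obtained at 19 to 21 months of age, and tumors 157, 158 and 167 from younger rats, bought at 6 to 8 weeks of age. These are ages at arrival. According to the study, all rats were then housed for months before any treatment, so they were older when dosed and when tumors were taken. According to the study's methods, the younger tumors were all that formed in younger rats, and the older ones were chosen for adequate tissue. Rats of both groups were given the progestin MPA as a 50 mg implant with 90 days of release, followed by the carcinogen DMBA, 65 mg per kg in a single gavage. No tumor of an untreated rat and no normal gland is among the libraries, and the tumors are whole tissue, so that fewer cells of a type and less RNA per cell cannot be told apart. The question asked of these genes is whether their RNA differed between tumors of older and younger rats.

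RAS proteins are small GTPases that are active while they hold GTP. Exchange factors such as SOS load them with GTP after a receptor tyrosine kinase has been engaged, and neurofibromin, the product of Nf1, speeds up the hydrolysis of that GTP and so turns RAS off. Active RAS recruits RAF kinases such as BRAF, which phosphorylate MEK, which in turn phosphorylates ERK. ERK then enters the nucleus, where it drives a set of target genes. Several of these targets feed back on the pathway. DUSP6 is a phosphatase that removes phosphate from ERK in the cytoplasm, and the Sprouty proteins SPRY2 and SPRY4 dampen signaling between receptor and RAF. Another target, ETV4, is an ETS transcription factor of the PEA3 group. In rodents DMBA is classically tied to activating Ras mutations, which change the protein and cannot be read from a count of reads.

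The bases ahead of the transcription start are shown for 3 of these genes, for Dusp6 and Spry2 as outputs and for Braf as an upstream kinase. They come from RefSeq with assembly GRCr8, are not of the build to which the reads were aligned, and were cut where the RefSeq gene begins, which leaves 148 bases for Dusp6. Capitals mark TGACG, the half-site of the cyclic AMP response element, and its palindrome TGACGTCA. For Spry2, 1 of 2 listed starts is shown.
Braf, chr4:69476932-69477181, minus strand: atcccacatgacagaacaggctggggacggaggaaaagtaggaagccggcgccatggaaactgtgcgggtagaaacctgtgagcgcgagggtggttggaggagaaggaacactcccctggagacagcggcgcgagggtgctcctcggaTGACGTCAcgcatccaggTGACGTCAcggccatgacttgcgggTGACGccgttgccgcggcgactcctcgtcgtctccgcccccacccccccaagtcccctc
Dusp6, chr7:35979354-35979501, plus strand: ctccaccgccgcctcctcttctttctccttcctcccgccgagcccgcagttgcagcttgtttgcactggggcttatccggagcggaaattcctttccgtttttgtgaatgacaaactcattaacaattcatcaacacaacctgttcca
Spry2, chr15:89111927-89112176, minus strand: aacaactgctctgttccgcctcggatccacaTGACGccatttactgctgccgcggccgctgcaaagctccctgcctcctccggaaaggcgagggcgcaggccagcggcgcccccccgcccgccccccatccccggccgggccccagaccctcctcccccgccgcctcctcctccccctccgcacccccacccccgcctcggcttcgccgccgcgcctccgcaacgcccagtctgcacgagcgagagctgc
RefSeq start regions were found for 7 of the 8 members, and the 250 bases ahead of each start were searched on both strands for CCGGAAG (an ETS site), TGANTCA (an AP-1 site), TGACG, its palindrome TGACGTCA, and the CArG box bound by serum response factor. TGACG occurred in 18.2% of all 33469 such windows and was present for Hras, Nras, Braf and Spry2. Braf held it 5 times, 4 of them as both strands of 2 copies of TGACGTCA, a palindrome found in 1.59% of the windows. The ETS site occurred in 7.27% of windows and was present for Nras and Nf1. AP-1 sites and CArG boxes, found in 6.34% and 1.5% of windows, had no match for these 7 genes, and Dusp6 and Spry4 matched no motif; for Dusp6 the window searched was also 250 bases and so ran past the 148 shown. Etv4 was not searched.

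The libraries held 3394451 to 6383983 counts in named genes, and a floor of 3 counts is between 0.53 and 1.03 CPM (counts per 1e+06 counts, here after scaling with edgeR's TMM factors), a limit that covers counting error only. Tumor 102 stood apart, with a mean correlation over all tested genes of 0.829 with the other tumors against 0.867 to 0.898 for the rest. It was also the smallest library, at 3394451 counts, and had the floor of 1.03 CPM. Tumor 167, with 3631265 counts, had a mean correlation of 0.867. The part of depth in these correlations was not tested. The mammary label matched the markers, since Epcam and Krt8 were far above the floor in every tumor, and the milk casein genes held between 0.617% (tumor 167) and 14.7% (tumor 158) of a library. The 4 luminal markers found in the table summed to between 1138 and 1229 CPM in older tumors and between 1479 and 1731 CPM in younger ones. Of these, Epcam and Krt8 were lower in every older tumor, whereas Krt18 and Cdh1 overlapped between the age groups. The 4 tested leukocyte markers were each higher in every older tumor than in any younger one, with sums of 187 to 537 CPM against 83.0 to 129 CPM. The B cell marker Cd79a, with 0, 3 and 4 counts in older and 7, 6 and 5 in younger tumors, went the other way. It had too few counts to be tested. The 5 markers of basal cells summed to 304 CPM in tumor 102 and to between 683 and 2180 CPM in the other tumors, and 5 proliferation genes to 114 CPM in tumor 102 and to between 586 and 948 CPM in the others. Tumor 102 had the highest sum of 3 adipocyte markers, at 161 CPM against 4.69 to 18.4 CPM in the others. Its sum of 5 fibroblast markers was also the highest, at 983 CPM against 100 to 802 CPM. Of these, Col1a2, Dcn and Pdgfra were highest in tumor 102. Col1a1 was highest in tumor 157, at 536 CPM against 475 CPM in tumor 102. Lum was highest in tumor 116, at 27.0 CPM against 21.7 CPM in tumor 102. The part of these differences in the results on RAS and ERK genes was not tested beyond the fits without tumor 102.

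Across 13139 genes, 0 (0%) differed between older and younger tumors at an adjusted p under 0.05 in the quasi-likelihood test of edgeR after adjustment by Benjamini-Hochberg. An unadjusted p under 0.05 was found for 1128 (8.59%), of which those higher in older tumors made up 5.3% of all genes and those lower 3.29%. None of the 8 RAS and ERK genes passed either threshold. DESeq2 called 362 genes (2.62% of those it tested) and limma-voom called 0, and neither called any of the 8. The smallest adjusted p among the 8 was 0.764, for Hras. In all 8 genes the age groups overlapped, whereas in 12.1% of all tested genes they did not (6.51% with all older tumors above and 5.58% with all older tumors below). Of the 8, 5 had a positive log2 fold change, older against younger, and 3 a negative one, beside a negative sign in 50.4% of all genes tested, and those of Braf, Dusp6 and Etv4 turned negative with limma-voom. The median was 0.03, and -0.0039 over all genes. With 3 tumors per group the 95% intervals are wide, and for each of the 8 they include 0.

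**Figure D1:**
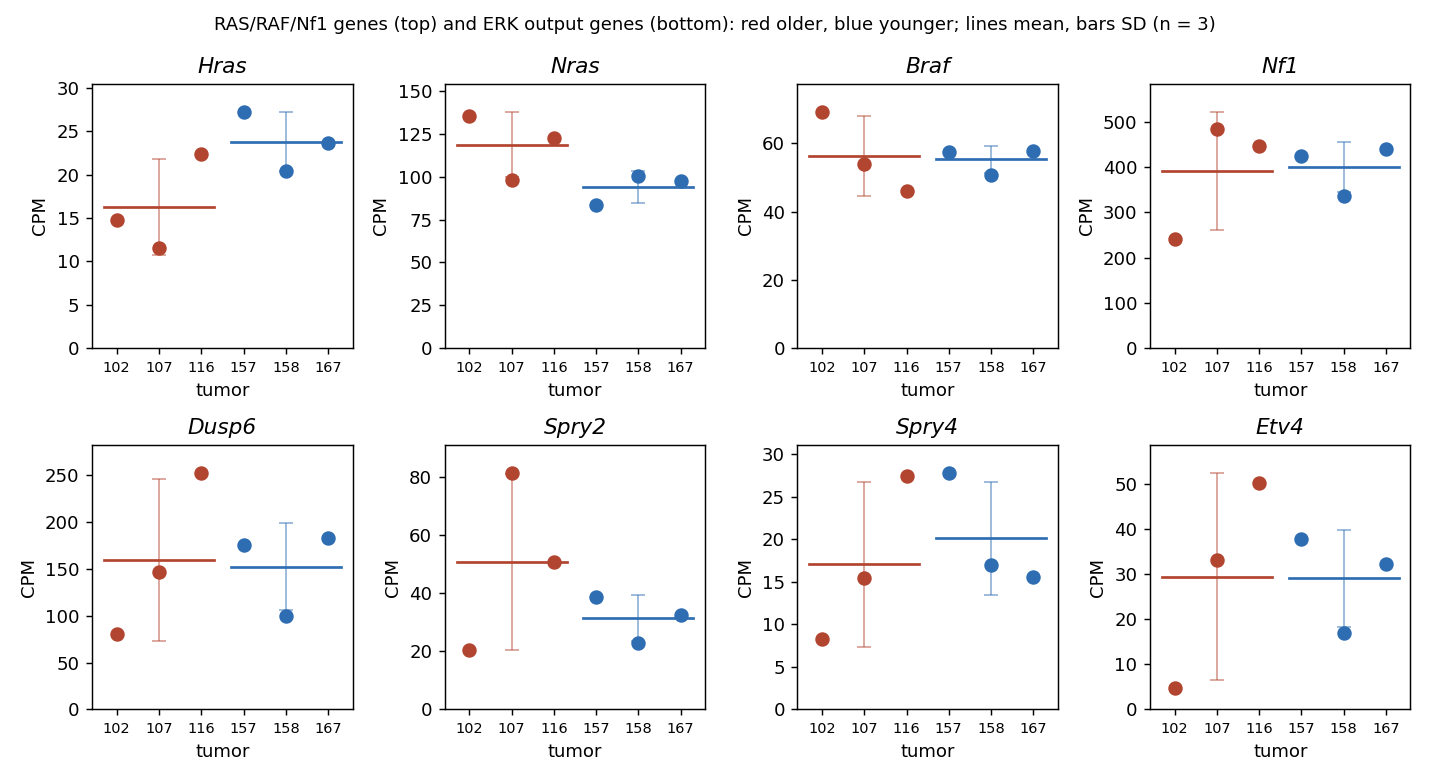
CPM (TMM-scaled, vertical axis from 0) of the 8 genes in each of the 6 tumors, older in red and younger in blue, with the group mean as a line and the SD as a bar (n = 3). The age groups overlap in every panel, and in all 4 output genes of the lower row the lowest point is tumor 102, at 4.82 CPM for Etv4.

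Hras encodes one of the RAS GTPases. It was at 14.8, 11.6 and 22.4 CPM in older tumors 102, 107 and 116 and at 27.2, 20.4 and 23.7 CPM in younger tumors 157, 158 and 167. Tumors 102 and 107 were below all younger tumors, and tumor 116 was within the younger range. With means of 16.3 ± 5.57 CPM in older and 23.8 ± 3.39 CPM in younger tumors (SD, n = 3 each), the log2 fold change was -0.54 (SE, the standard error, 0.33, 95% interval -1.32 to 0.23, adjusted p = 0.764, edgeR). In the fit without tumor 116 it was -0.86, with an unadjusted p of 0.0406 and an adjusted p of 0.448 (edgeR), and without tumor 107 it was -0.35, with an unadjusted p of 0.361 (edgeR). In RefSeq, Hras overlaps Lrrc56 and a second locus, and as the sources used here give no strand setting for the counts, reads of overlapping genes may not be fully separated.

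Nras encodes a second RAS GTPase, and its values leaned the other way. It was at 136, 98.2 and 123 CPM in older tumors 102, 107 and 116 and at 83.6, 101 and 97.8 CPM in younger tumors 157, 158 and 167. Tumors 102 and 116 lay above all younger tumors, and tumor 107 lay among them. The log2 fold change was 0.34 (SE 0.22, 95% interval -0.18 to 0.86, adjusted p = 0.79, edgeR), between 119 ± 19.0 CPM and 94.1 ± 9.15 CPM (SD, n = 3 each). Its sign, like that of Hras, was the same in all 14 other fits, in which the value ran from 0.23 to 0.45.

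Braf, the RAF kinase with the highest basal activity, varied least. It was at 69.2, 53.9 and 46.1 CPM in older tumors 102, 107 and 116 and at 57.5, 50.8 and 57.8 CPM in younger tumors 157, 158 and 167. The highest value was 1.5 times the lowest, both were in older tumors, and the younger tumors lay between them. The log2 fold change was 0.02 (SE 0.24, 95% interval -0.54 to 0.59, adjusted p = 0.991, edgeR).

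Nf1, the RAS GTPase activating protein, was at 241, 484 and 447 CPM in older tumors 102, 107 and 116 and at 425, 337 and 440 CPM in younger tumors 157, 158 and 167. Tumor 102 was the lowest of the 6, at 0.716 times the next lowest, and the other older tumors were the highest. The log2 fold change was -0.03 (SE 0.33, 95% interval -0.79 to 0.72, adjusted p = 0.99, edgeR) and turned to 0.21 without tumor 102. Evi2a, Evi2b, Omg and Faul2 overlap Nf1 in RefSeq, and Ndufb2 and 3 pseudogenes overlap Braf, with the same limit on counting as for Hras.

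Among the output genes, Dusp6, the ERK phosphatase, was at 80.2, 147 and 252 CPM in older tumors 102, 107 and 116 and at 175, 99.5 and 183 CPM in younger tumors 157, 158 and 167. The older tumors held both the lowest and the highest value, 3.14-fold apart. The log2 fold change of 0.07 (SE 0.44, 95% interval -0.95 to 1.09, adjusted p = 0.984, edgeR) came with means of 160 ± 86.6 CPM and 153 ± 46.1 CPM (SD, n = 3 each). It was 0.39 without tumor 102 and -0.43 without tumor 116.

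Etv4, the ETS factor, had the widest spread of the 8 genes. It was at 4.82, 33.2 and 50.3 CPM in older tumors 102, 107 and 116 and at 37.8, 17.0 and 32.3 CPM in younger tumors 157, 158 and 167. The value in tumor 102 rests on 14 reads and was 0.283 times the next lowest, and the highest was 10.4 times the lowest. The group means were close, at 29.4 ± 23.0 CPM and 29.1 ± 10.8 CPM (SD, n = 3 each), and the log2 fold change was 0.03 (SE 0.70, 95% interval -1.61 to 1.67, adjusted p = 0.995, edgeR). This interval leaves room for a change of either sign of 2-fold or more. The value was 0.52 without tumor 102 and -0.60 without tumor 116.

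The Sprouty genes differed from each other. Spry2 was at 20.7, 81.4 and 50.9 CPM in older tumors 102, 107 and 116 and at 38.9, 23.0 and 32.6 CPM in younger tumors 157, 158 and 167. Tumors 107 and 116 were above all younger tumors and tumor 102 was below them. Its log2 fold change of 0.70 was the largest of the 8 genes (SE 0.48, 95% interval -0.42 to 1.81, adjusted p = 0.802, edgeR). Without tumor 102 the value was 1.07, with an unadjusted p of 0.015 and an adjusted p of 0.488 (edgeR), and without tumor 107 it was 0.19.

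Spry4 was at 8.26, 15.5 and 27.4 CPM in older tumors 102, 107 and 116 and at 27.8, 17.0 and 15.6 CPM in younger tumors 157, 158 and 167. Tumor 102 was again the lowest, with 24 reads, and tumor 116 was close to the highest younger tumor. The log2 fold change was -0.23 (SE 0.47, 95% interval -1.33 to 0.87, adjusted p = 0.95, edgeR), 0.09 without tumor 102 and -0.76 without tumor 116.

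**Figure D2:**
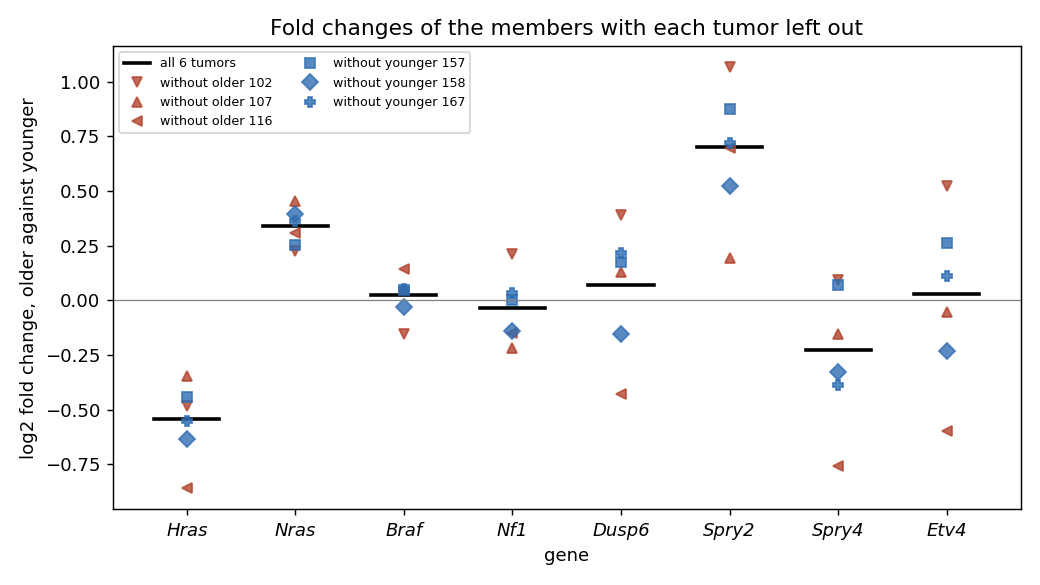
Log2 fold change, older against younger, of each of the 8 genes with all 6 tumors (black line) and with each tumor left out in turn (symbols, red for an older and blue for a younger tumor left out). Hras stays below 0, Nras and Spry2 stay above it, and the other 5 genes cross it, with Etv4 running from -0.60 without tumor 116 to 0.52 without tumor 102.

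The 4 output genes can be put together: their mean log2 CPM was 4.06, 5.66 and 6.03 in older tumors 102, 107 and 116 and 5.71, 4.86 and 5.40 in younger tumors 157, 158 and 167. The older tumors spanned the whole range, and the group means of 5.25 ± 1.05 and 5.32 ± 0.43 (SD, n = 3 each) differed by -0.07. Without tumor 102 the difference was 0.52. For the 4 upstream genes the corresponding values ran from 6.22 in tumor 107 to 6.46 in tumor 167. That mean covers genes that differed in opposite directions, since tumor 102 was highest for Nras and Braf and lowest for Nf1. Taken singly, Hras spanned 2.35-fold and Nf1 2.01-fold over the tumors. Tumor 102 was the lowest of the 6 tumors in each of the 4 output genes, and in 27.3% of all tested genes. Tumor 158 was the second lowest for Dusp6, Spry2 and Etv4.

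Of 14 other ERK output genes fixed as a list, 0 passed the adjusted threshold in either direction, 8 had a positive and 6 a negative log2 fold change, and their median was 0.22. Etv5, a close relative of Etv4, was at 24.4, 77.3 and 153 CPM in older tumors 102, 107 and 116 and at 96.4, 50.8 and 75.3 CPM in younger tumors 157, 158 and 167. Ccnd1, which encodes cyclin D1 and carries cells into the cell cycle, was at 123, 355 and 534 CPM and at 393, 177 and 284 CPM in the same tumors. Etv4, Etv5 and Ccnd1 put the 6 tumors in the same order, with 102 lowest, then 158, 167, 107, 157 and 116. This order was shown by 27 of all tested genes (0.205%), beside 0.122% (Hras) to 0.426% (Dusp6) for the orders of the 8 members. The receptor gene Epha2 and the AP-1 gene Fosl1 were also lowest in tumor 102, at 7.92 and 2.41 CPM. These values rest on 23 and 7 reads.

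Other outputs had the opposite place in tumor 102. Fos, an immediate early gene, was at 839, 120 and 146 CPM in older tumors 102, 107 and 116 and at 108, 290 and 133 CPM in younger tumors 157, 158 and 167. Egr1, another immediate early gene, was at 748 CPM in tumor 102 and between 129 and 307 CPM in the other tumors. Dusp4, a nuclear ERK phosphatase, was at 324 CPM in tumor 102 and between 36.2 and 167 CPM elsewhere. In all, 6 of the 14 genes were highest in tumor 102 and 5 were lowest there, beside 25.7% and 27.3% of all tested genes. Fos and Egr1 had log2 fold changes of 1.05 and 0.45 (adjusted p = 0.82 and 0.918, edgeR), which were -0.43 and -0.67 without tumor 102.

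**Figure D3:**
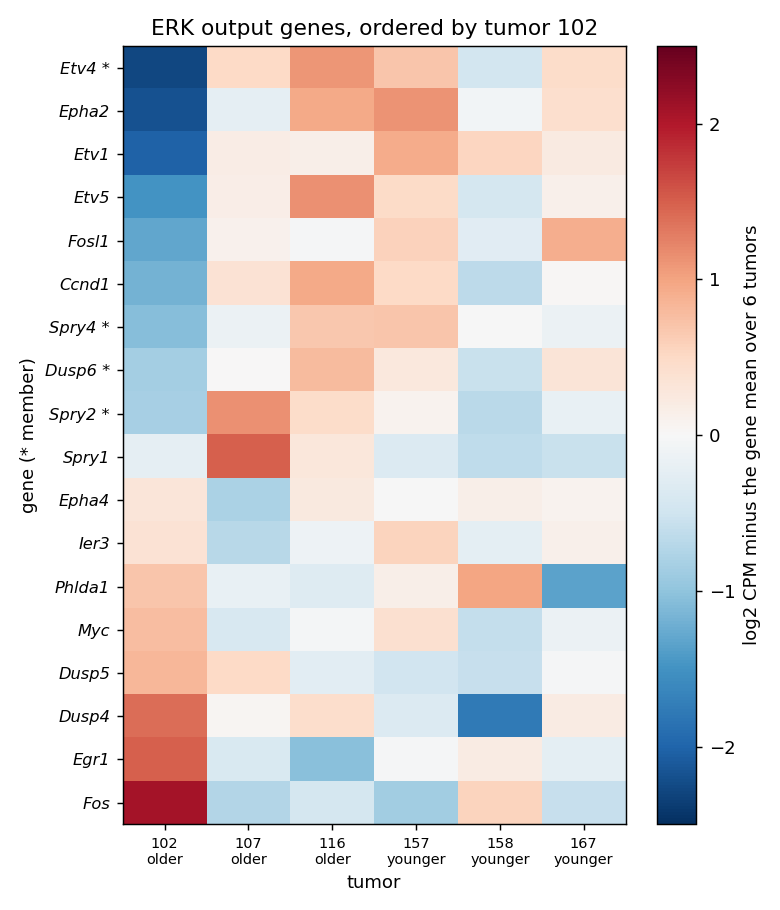
Log2 CPM of the 18 ERK output genes minus each gene's mean over the 6 tumors (color), with tumors in columns and genes in rows ordered by their value in tumor 102; the asterisk marks the 4 members. In tumor 102 Etv4, at 4.82 CPM, and its neighbors at the top are far below their means, whereas Fos, at 839 CPM, and Egr1 at the bottom are far above.

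Spry1, another Sprouty gene, separated the age groups. It was at 29.6, 97.7 and 42.1 CPM in older tumors 102, 107 and 116 and at 27.4, 22.3 and 23.5 CPM in younger tumors 157, 158 and 167. All older tumors lay above all younger ones, tumor 102 by a small margin. Its log2 fold change was 1.21 (SE 0.45, 95% interval 0.18 to 2.25, unadjusted p = 0.0273, adjusted p = 0.49, edgeR), so that it did not pass the threshold, and it was 0.56 without tumor 107. The 4 tested leukocyte markers were higher in the same tumors, and tumor 107 had the highest Spry1 and the highest sum of these markers. Dusp4 and Dusp5, phosphatases of the same family as Dusp6, had log2 fold changes of 1.17 and 0.76 (adjusted p = 0.629 and 0.605, edgeR), with overlap between the groups, and 0.68 and 0.51 without tumor 102. Etv1, the remaining PEA3 factor, was lower in every older tumor, at 5.85 to 27.3 CPM against 27.9 to 45.6 CPM, with a log2 fold change of -0.85 (SE 0.53, adjusted p = 0.773, edgeR). Its lowest value was in tumor 102, without which the log2 fold change was -0.43.

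The rest of the pathway was covered by 35 further genes in the table, from adaptors to ERK substrates. Of the 48 genes tested beside the 8, outputs included, 0 passed the adjusted threshold in either direction, and 4 had an unadjusted p under 0.05 (edgeR), beside 8.59% of all genes. DESeq2 and limma-voom also called 0 of them. The age groups did not overlap for 6 of the 48, or 12.5%, against 12.1% of all genes tested. The median log2 fold change of the 48 was 0.02.

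Map2k1 and Rasgrp1 also had an unadjusted p under 0.05. Map2k1, which encodes the kinase MEK1, was at 37.2, 41.4 and 43.9 CPM in older tumors 102, 107 and 116 and at 87.9, 63.3 and 53.1 CPM in younger tumors 157, 158 and 167. All older tumors were below all younger ones, with a log2 fold change of -0.74 (SE 0.26, 95% interval -1.35 to -0.12, adjusted p = 0.471, edgeR). Without tumor 157 it was -0.52, with an unadjusted p of 0.102 (edgeR). Map2k2, which encodes MEK2, was also lower in every older tumor, at 54.3 to 59.1 CPM against 62.1 to 72.9 CPM, a log2 fold change of -0.27 (SE 0.21, adjusted p = 0.827, edgeR).

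Rasgrp1, an exchange factor for RAS that is best known from T cells, was at 20.3, 39.1 and 19.4 CPM in older tumors 102, 107 and 116 and between 9.87 and 17.9 CPM in the younger tumors. All older tumors were above all younger ones, and the log2 fold change was 0.98 (SE 0.40, adjusted p = 0.549, edgeR), or 0.57 without tumor 107, where the unadjusted p was 0.199 (edgeR). The leukocyte gene Ptprc, which encodes CD45, separated the groups in the same direction, at 212, 354 and 101 CPM and at 58.7, 30.8 and 51.1 CPM in older and younger tumors in the same order (log2 fold change 2.25, SE 0.48, adjusted p = 0.271, edgeR). The T cell marker Cd3e was also higher in every older tumor, at 3.44, 4.32 and 5.21 CPM in tumors 102, 107 and 116. It was at 1.41 to 1.73 CPM in younger tumors and, unlike Rasgrp1, was highest in tumor 116. The part of leukocyte content in the values of Rasgrp1 and Spry1 was not tested.

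**Figure D4:**
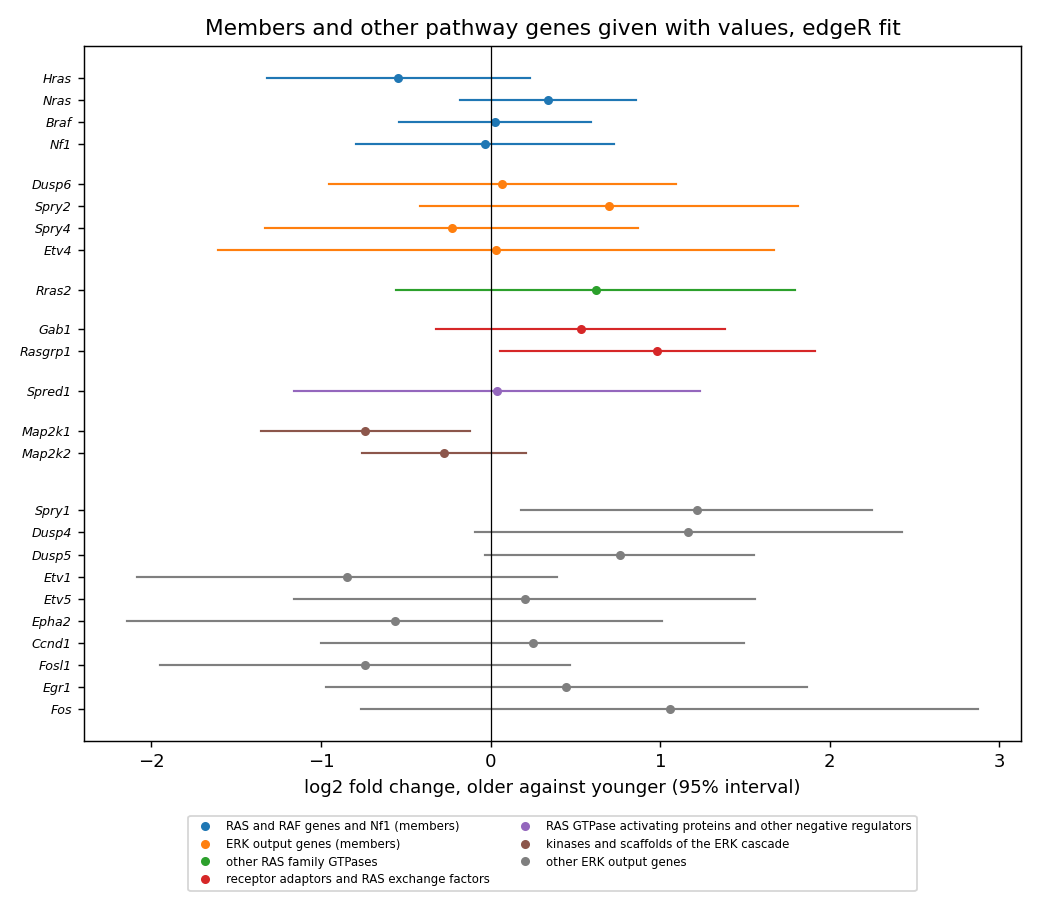
Log2 fold change, older against younger, with its 95% interval (edgeR) for the 8 members and the 16 other tested genes of the pathway given with values here, which were picked after their values were seen, colored by role. The intervals of Rasgrp1, Map2k1 and Spry1 leave out 0 before adjustment, and the adjusted p of each is at least 0.471.

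Mapk3, which encodes ERK1, is listed at 0 counts in all 6 tumors. Whether its reads could be counted with the annotation used is not known, so that no upper limit is given and nothing was read from it. Spred1, a RAS inhibitor related to the Sproutys, was lowest in tumor 102 like the output members, at 90.9 CPM against 116 to 326 CPM in the others. Gab1, an adaptor, was highest in tumor 102, at 179 CPM against 67.1 to 120 CPM.

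By Pearson correlation of log2 CPM over the 6 tumors, among 10240 other genes with a mean of at least 10 CPM, the genes most like each output were found as a description. For Dusp6 they were Pola1 (r = 0.991), Capn10 (0.991) and Trim37 (0.984). For Etv4 they were Ndc80 (r = 0.996) and Ttk (0.993), which act in mitosis, and Hmgb2l1 (0.989). Spry4 was followed most closely by Uba2 (r = 0.996), Bud13 (0.994) and Kif20a (0.992), and Spry2 by Limd2 (r = 0.985), LOC100910979 (0.982) and Hic1 (0.972). With 6 tumors, of which 102 stands apart, many genes reach such values: 386 genes had an r of 0.9 or more with Etv4, 238 with Spry4, 162 with Dusp6 and 75 with Spry2. Without tumor 102 the r of the 12 named genes lay between 0.948 and 0.997 over 5 tumors. Because the genes were picked by r over tumors that include these 5, a high r was likely beforehand.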

How the data were processed

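RNA-seq libraries of 6 whole mammary tumors were used, 3 from each age group. The authors checked reads with FastQC 0.11.7, trimmed adapters with Trimmomatic 0.38, aligned reads with STAR 2.7.9a, marked duplicates with Picard 2.18.12, counted reads per gene with HTSeq 0.13.5 and deposited the raw counts. The submitters' processing notes name the build mRatBN7.2, and the annotation and strand setting are not given in the sources used here. The labels give polyA RNA and reads of 100 bases, whereas the protocol describes ribosomal RNA depletion and reads of 150 bases. Whether marked duplicates were counted is not given either. Without gene lengths, levels were compared only for the same gene between tumors.

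Columns were assigned by tumor ID, and 0 columns were left unused. Rows without a gene name (4367 of 30562, holding 2.17% to 3.64% of the counts) were left out. The counts went into edgeR 4.0.16 under R 4.3.3 (filterByExpr, TMM, quasi-likelihood test, Benjamini-Hochberg adjustment over 13139 genes, threshold 0.05), and standard errors and 95% intervals were calculated back from the F statistic. Per-tumor CPM are counts divided by TMM-scaled totals, and log2 CPM used a prior count of 2. Replicates are separate tumors, from 3 older and 3 younger rats according to the study. Alternatives used DESeq2 1.42.0, limma 3.58.1 (voom), other scalings and filters, and fits without each tumor. The named genes are the 8 members, the genes of the pathway and marker lists, and, for each of the 4 output genes, the 3 genes of at least 10 CPM with the highest correlation. The genes of the lists given with values were picked after their values were seen, and the members and lists were chosen with earlier results of these data known. Some genes of the lists enter the counts but are not reported here. Sequences are from RefSeq (GRCr8).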

Additional observations from a re-analysis of the deposited data

How the results depend on the processing

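No paired analysis was possible because no replicate number occurs in both age groups. The count of genes past the adjusted threshold was 0 with edgeR (1128 at an unadjusted p under 0.05) and 362 with the DESeq2 Wald test, 242 higher and 120 lower in older tumors; the cause was not tested. It was 0 in the 13 other fits, among them limma-voom (888 at an unadjusted p under 0.05), and from 0 to 0 with each tumor left out, as were the counts among the 8 members and the 48 other pathway genes in every fit. Hras, Nras and Spry2 kept their sign in all 14 alternatives. With one tumor left out, log2 fold changes ran from -0.15 to 0.15 for Braf, -0.22 to 0.21 for Nf1, -0.43 to 0.39 for Dusp6, -0.76 to 0.091 for Spry4, -0.60 to 0.52 for Etv4, -0.54 to 0.64 for Etv5, -0.26 to 0.65 for Ccnd1, -0.43 to 1.61 for Fos, -0.67 to 0.84 for Egr1, -0.48 to 0.46 for Spred1 and -0.12 to 0.99 for Rras2, and the difference in mean log2 CPM of the output genes from -0.47 to 0.52. Signs also changed with limma-voom for Braf (-0.0056), Dusp6 (-0.036), Etv4 (-0.23), Etv5 (-0.057) and Spred1 (-0.056), with library totals alone for Braf (-0.079) and Spred1 (-0.010), and with all genes of at least 1 count for Braf (-0.0064); the cause was not tested. Keeping the rows without a gene name, an alternative chosen after seeing the data, gave 0 genes and changed no sign among the 8. Etv4 and Spry4, at 14 and 24 reads in tumor 102, are the members most limited by depth.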

Other observations

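Beyond the members, the RAS-related GTPase gene Rras2 was at 81.2, 18.4 and 35.2 CPM in older tumors 102, 107 and 116 and at 25.5, 27.9 and 34.1 CPM in younger tumors 157, 158 and 167. Its value in tumor 102 was 4.41 times the lowest, and its log2 fold change of 0.62 (SE 0.50, adjusted p = 0.848, edgeR) was -0.12 without that tumor. Across the lists, the adaptors and exchange factors had 7 of 8 genes with a positive log2 fold change and the GTPase activating proteins and other negative regulators 8 of 10 with a negative one, by sign alone, beside 50.4% of all tested genes with a negative sign. The median log2 fold changes of these lists were 0.22 and -0.12, and in neither did a gene pass the adjusted threshold. Some of the signs counted rest on values near 0, down to 0.049 in the first list and -0.010 in the second. Signs of values this small turned between fits for Braf and Spred1. Positive and negative signs numbered 5 and 3 for the kinases and scaffolds of the cascade, and 1 and 4 for the ERK substrates. The other RAS family GTPases had 2 positive and 1 negative. Whether the signs bear on RAS activity was not tested.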
